A study of Mus musculus with 16 samples.

Results

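Memory-phenotype B cells that had switched on a Zfp318 reporter were compared between mice with 1 and mice with 2 copies of the reporter allele. The comparison took 8 of the 16 libraries of the series, 4 per genotype, grouped by their genotype and tdTomato labels. The comparison itself and its gene lists were chosen with earlier results of these data known. Each library was made with Smart-seq2, a full-length cDNA method, from about 1000 sorted spleen cells. The cells were taken 7 days after immunization of C57BL/6 mice with NP-OVA, LPS and alum, and were B220+, CD38+ and tdTomato+, bound the hapten NIP, and lacked surface CD138, GL7, FAS and IgD.

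Heterozygous cells (HetTP) had the genotype Zfp318ZSDAT/+ and homozygous cells (KOTP) Zfp318ZSDAT/ZSDAT. The labels of both groups also give AID-Cre, a Cre recombinase under the control of the gene for activation-induced deaminase, the B1-8hi heavy chain, and GFP. The series sets Zfp318-sufficient against Zfp318-deficient memory B cells, so the heterozygous mice, which still hold 1 reporter allele, are its sufficient group. The age of the mice and the number of animals behind each library are not given in the sources used here, and each p-value therefore reflects how much these libraries vary, part of which may be technical.

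Zfp318 is a zinc finger protein that lets transcription run through the Ighm exons into Ighd, so that 1 cell can make IgM and IgD from the same heavy chain. Memory B cells leave the cell cycle after antigen contact, keep a rearranged receptor that may have switched from IgM to IgG, and wait at sites where antigen enters. The B1-8 heavy chain uses the variable segment V186.2, named Ighv1-72 in the current nomenclature, and forms NP- and NIP-binding receptors when it pairs with a lambda 1 light chain.

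Library quality differed between the genotypes. Total counts were 10709268 to 15742445 in HetTP and 7991732 to 14325276 in KOTP. A HetTP library had no count for 7.02% to 11.3% of the tested genes, against 1.56% to 2.34% in KOTP. The biological coefficient of variation was 0.904 among HetTP and 0.215 among KOTP libraries, and no pair of libraries differed by as little as sampling noise. The genotypes were deposited in separate tables, whose RPM columns (reads per 1000000) summed to 1.44 to 1.5 times the total such columns should have in HetTP and to 0.377 to 0.395 times in KOTP, so a difference of batch or counting cannot be told apart from genotype. Among counts from 1 to 20, between 72.7% and 85.2% were even in HetTP and between 81.1% and 83% in KOTP, so most low counts came in pairs and single counts are not independent molecules.

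The libraries held the RNA of B cells. All 13 markers of B cell identity were measured, and their summed level was 13550 to 16590 counts per 1000000 (CPM) in HetTP and 23560 to 25040 CPM in KOTP. Sdc1, which encodes the excluded marker CD138, was at 0 to 16.5 CPM in HetTP and 0 to 0.77 CPM in KOTP. Fas, whose protein was also excluded, was at 30.0 to 93.9 CPM in HetTP and 65.4 to 73.2 CPM in KOTP. Markers of T cells, macrophages and red cells were more abundant in HetTP. The summed level of 18 T cell markers was 207 to 758 CPM in HetTP and 42.3 to 52.9 CPM in KOTP, where 9 of the 18 had no count. Most of the KOTP sum was Lck, which B cells can also express, with a mean of 44.3 CPM. The sum of 22 macrophage and monocyte markers was 158 to 874 CPM against 104 to 128 CPM, and that of 14 erythroid and platelet markers 20.6 to 569 CPM against 13.5 to 19.3 CPM. The sums of 2 other marker lists were higher in KOTP, but each was mostly a single gene. The 12 dendritic cell markers summed to 331 to 501 CPM in HetTP and 514 to 609 CPM in KOTP, with Cst3 at means of 289 and 436 CPM. The 12 stromal and endothelial markers summed to 87.9 to 127 CPM and 154 to 195 CPM. Their main member was Pecam1, with means of 99.4 and 174.5 CPM, which is also in the list of inhibitory coreceptors used below. The part of these transcripts in the results below was not tested.

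Zfp318 (ENSMUSG00000015597, GRCm38 chromosome 17, 46383731 to 46420920) followed the genotype labels in all 8 libraries. Its level was 110, 83.8, 94.1 and 121 CPM in HetTP and 2.83, 2.92, 0.91 and 1.23 CPM in KOTP, and the groups were far apart. The log2 fold change was -5.72 (SE 0.55, edgeR quasi-likelihood adjusted p = 3.0e-06). Ighd, the IgD heavy chain, fell with it, from 1043, 733, 823 and 1025 CPM to 22.6, 28.1, 15.8 and 27.6 CPM, a log2 fold change of -5.27 (SE 0.25, edgeR adjusted p = 2.7e-10).

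The antigen receptors of the groups were unlike. In KOTP most V segment and light chain reads were of Ighv1-72 and lambda, the pair that the B1-8hi label and NIP binding describe, and switched isotypes held a far larger share of heavy chain constant reads than in HetTP. In HetTP the V segments were diverse, and kappa and IgM held the majority. Ighv1-72 took 6.51%, 11.5%, 10.5% and 7.35% of all heavy chain V segment reads in HetTP, and 88.0%, 85.5%, 86.8% and 86.4% in KOTP. This went against the B1-8hi label in all 4 HetTP libraries, so the results below cannot be given without such libraries. The same share in tdTomato-negative cells was 2.58% to 19.3% in heterozygous and 82.8% to 87.8% in homozygous libraries. Among the 115 Ighv segments in the tables, 47 had a mean above 5 CPM in HetTP and 3 in KOTP. The level of Ighv1-72 itself was 85.0 to 116 CPM in HetTP and 222 to 312 CPM in KOTP. All Ighv segments together were at 901 to 1779 CPM in HetTP and 257 to 360 CPM in KOTP, so its share rose while the sum fell.

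Light chains divided the groups in the same manner. The lambda share of light chain constant reads, counted per kb of coding sequence, was 26.1%, 41.3%, 48.5% and 34.6% in HetTP and 92.1%, 91.8%, 92.4% and 92.9% in KOTP. Within lambda, Iglc1 (the lambda 1 constant gene) held 29.5% to 39.2% of the reads per kb in HetTP and 72.9% to 76.2% in KOTP. Iglc1 itself was at 1578, 1413, 2005 and 1122 CPM in HetTP and 11680, 11980, 11930 and 11600 CPM in KOTP (log2 fold change 2.95, SE 0.15, edgeR adjusted p = 3.4e-10). Igkc, the kappa constant gene, was at 5173 to 13520 CPM in HetTP and 1235 to 1469 CPM in KOTP (log2 fold change -2.57, SE 0.29, edgeR adjusted p = 1.3e-05). The summed kappa variable segments were at 3134 to 9176 CPM in HetTP and 617 to 734 CPM in KOTP, and the 3 lambda variable segments at 1027 to 2215 CPM and 11280 to 11750 CPM. No tdTomato-positive library of one genotype reached the range of the other in any of these measures. In tdTomato-negative cells the lambda share was 22.1% to 67.9% in heterozygous and 90.8% to 92.8% in homozygous libraries, without overlap. The lambda variable segments did overlap there, at 2033 to 11240 CPM and 10530 to 12320 CPM.

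Heavy chain constant regions differed as well. Per kb of coding sequence, switched isotypes (IgG, IgA and IgE) held 8.08%, 3.99%, 7.70% and 7.63% of heavy chain constant reads in HetTP and 56.3%, 54.8%, 53.6% and 52.7% in KOTP. Without the division by length the share was 3.6% to 7.3% in HetTP and 48.7% to 52.3% in KOTP. Per kb, IgM held 75.6% to 82.6% in HetTP and 43.1% to 46.5% in KOTP, and IgD 11.3% to 16.8% and 0.40% to 0.79%. Ighg2b, an IgG constant gene, was at 320, 124, 461 and 256 CPM in HetTP and 1636, 1513, 1631 and 1487 CPM in KOTP (log2 fold change 2.43, SE 0.31, edgeR adjusted p = 4.3e-05). The switched share without the division by length and the shares in tdTomato-negative cells were not tested. Each of the other shares above had an exact permutation p of 0.0286 (two-sided, 4 HetTP against 4 KOTP libraries), the smallest the design allows. It was 0.0321 after Benjamini-Hochberg adjustment over 18 measures of library composition. Reads shared by the near-identical lambda, kappa V or IgG genes may have been assigned to the wrong member, since their handling is not given in the sources used here.

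**Figure D1:**
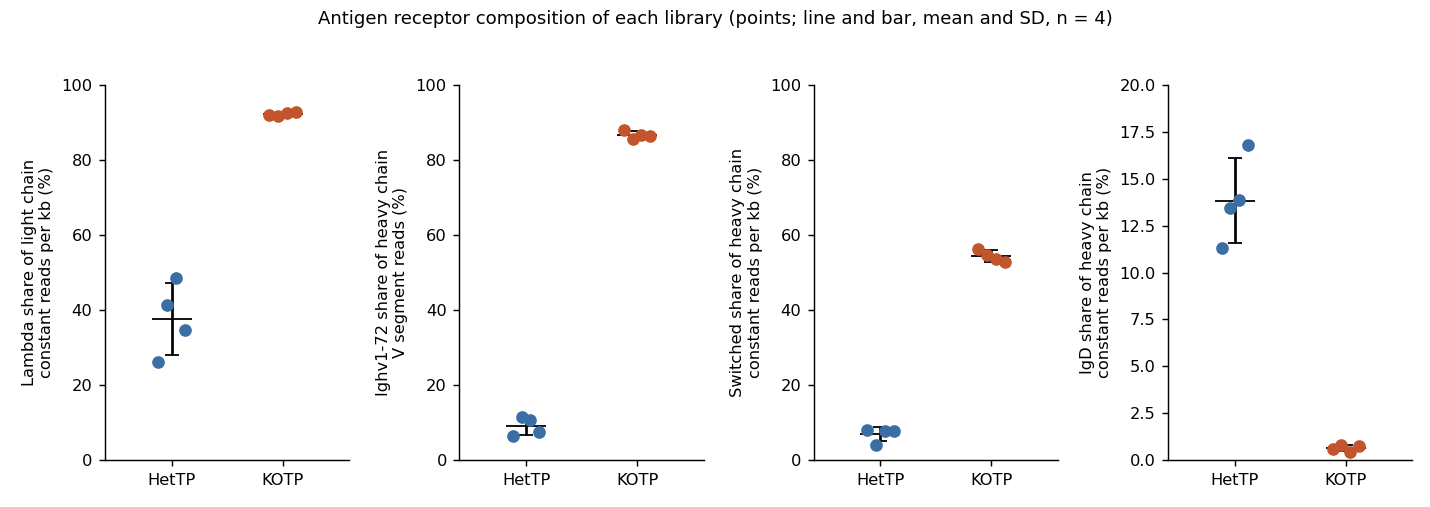
Share of lambda among light chain constant reads per kb, of Ighv1-72 among heavy chain V segment reads, and of switched isotypes and IgD among heavy chain constant reads per kb, in percent, for each HetTP (blue) and KOTP (orange) library, with the mean and SD of 4 libraries. The lambda share of KOTP libraries lies between 91.8% and 92.9%, above all HetTP libraries, and the IgD axis ends at 20%.

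HetTP library 1 stood apart in its repertoire. Its segments Ighv11-2 and Igkv14-126, which pair in a well-known receptor of B-1 cells, were at 737 and 3896 CPM, against 16.7 to 35.8 and 19.7 to 238 CPM in the other 3 HetTP libraries. Both segments were named after their values were seen. Without this library 1120 genes passed the test, against 1099 with it, and 892 were shared.

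Across all genes, 1099 of 10687 (10.3%) differed between KOTP and HetTP at an adjusted p under 0.05 in edgeR's quasi-likelihood test. In KOTP 541 (5.06%) were higher and 558 (5.22%) lower. The share of calls that were higher in KOTP was 49.2% with TMM scaling and 59.6% when libraries were scaled to their upper quartile, so the balance of directions depends on the scaling. Of the called genes, 241 were higher by at least 2-fold and 404 lower by at least 2-fold, and 1019 had no overlap between the 4 and 4 libraries. Over all genes tested, 1221 (11.4%) lay without overlap above HetTP in KOTP and 931 (8.71%) below it. Among the higher calls, 83 genes had no count in any HetTP library, and among the lower calls 11 had none in any KOTP library. Of the 1099 genes, 869 also passed in both a fit of the 8 libraries alone and limma voom with a spread of its own for each group. Leaving out KOTP library 4 lowered the count to 722.

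**Figure D2:**
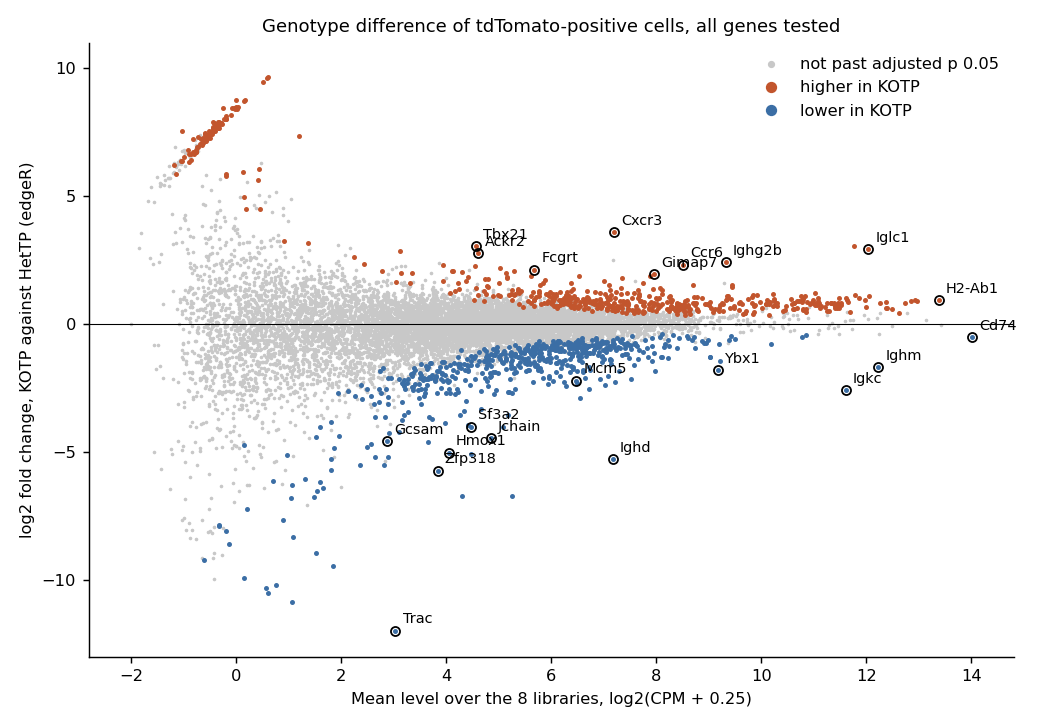
Log2 fold change of KOTP against HetTP (vertical axis) against the mean level over the 8 libraries in log2(CPM + 0.25) (horizontal axis), 1 point per tested gene, with genes past an adjusted p of 0.05 in edgeR in orange (higher in KOTP) or blue (lower). Zfp318 and Ighd lie among the falls, Cxcr3 and Iglc1 among the rises, and the line of orange points at the upper left holds genes without a count in HetTP.

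Signal chains of the B cell receptor were higher in KOTP. Of 31 genes of activating receptor signalling, 8 were higher and 1 lower, against 5.06% and 5.22% of all genes. Cd79a and Cd79b, the signal chains of the receptor, rose with log2 fold changes of 0.65 and 0.74. Cd79b was at 2229, 2187, 2180 and 2424 CPM in HetTP and 3676, 3691, 3995 and 3725 CPM in KOTP, with no overlap (SE 0.11, edgeR adjusted p = 1.5e-04). Cd81, a tetraspanin, rose by 0.81 and Ptprc, the phosphatase CD45, by 0.73. The single fall was Nfatc1, a calcium-regulated transcription factor downstream of the receptor. It was at 402, 292, 297 and 354 CPM in HetTP and 99.9, 77.2, 60.8 and 42.4 CPM in KOTP (log2 fold change -2.26, SE 0.23, edgeR adjusted p = 6.8e-06).

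Inhibitory receptors and receptors for the Fc part of antibodies moved in both directions. Of 22 inhibitory coreceptors and phosphatases, 4 were higher and 1 was lower, and of 12 Fc receptors and Fc receptor-like genes 4 were higher and 2 lower. The shares over all genes tested were 5.06% and 5.22%. Fcgr2b, the inhibitory IgG receptor of B cells, was at 138, 153, 150 and 223 CPM in HetTP and 463, 403, 436 and 450 CPM in KOTP. Its groups did not overlap and the log2 fold change was 1.40 (SE 0.27, edgeR adjusted p = 0.0019). Cd72, another inhibitory coreceptor, rose by 0.85 on the log2 scale, while the adaptor Dok3 fell by 0.63. Ptpn6, the phosphatase SHP-1 and the most abundant member, was at 1254 to 1634 CPM in HetTP and 1532 to 1643 CPM in KOTP and did not pass the test. Fcgrt, the heavy chain of the neonatal Fc receptor, rose from 31.0, 12.9, 19.1 and 39.2 CPM to 101, 138, 117 and 91.6 CPM (log2 fold change 2.13, SE 0.28, edgeR adjusted p = 7.9e-05). Fcrla and Fcrl1, Fc receptor-like genes of B cells, rose by 1.00 and 0.83. Fcmr, the Fc receptor for IgM, fell by 0.42 (edgeR adjusted p = 0.013), a call lost without KOTP library 1 and with upper quartile scaling. Fcer1g, a signal chain of myeloid Fc receptors, was at 61.6, 3.49, 82.2 and 23.4 CPM in HetTP and 1.99 to 6.04 CPM in KOTP. It passed the test (edgeR adjusted p = 0.0026) although the groups overlapped, and it moved with the macrophage markers, whose part in it was not tested.

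Receptors that sense the environment outside the B cell receptor gave fewer calls. Of 22 Toll-like receptors and adaptors 2 were higher and 1 lower, and the higher ones were Ly86, which pairs with the LPS-binding RP105, and Unc93b1, the chaperone of endosomal Toll-like receptors, with log2 fold changes of 1.05 and 0.71. Of 17 genes of the BAFF, TACI and CD40 axis 3 were higher. Among all genes tested, 5.06% were higher and 5.22% lower. Tnfrsf13b, which encodes TACI, was at 168, 135, 107 and 96.9 CPM in HetTP and 189, 191, 235 and 209 CPM in KOTP (log2 fold change 0.70, SE 0.17, edgeR adjusted p = 0.0097). Tnfaip8, a regulator of cell death, rose by 1.17. Ltb, the lymphotoxin beta chain, was the most abundant gene of this list at 918 to 1483 CPM and 1495 to 1818 CPM, and it missed the threshold (edgeR adjusted p = 0.084) although its groups did not overlap.

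Chemokine receptors and other receptors that position B cells in lymphoid tissue changed strongly. Of 21 tested, 4 were higher and 3 lower in KOTP, against 5.06% and 5.22% of all genes. Ccr6 (GRCm38 chromosome 17, 8236043 to 8257141), the receptor for CCL20, was at 191, 135, 162 and 168 CPM in HetTP and 833, 821, 806 and 841 CPM in KOTP (log2 fold change 2.33, SE 0.15, edgeR adjusted p = 3.2e-08). Cxcr3 (chromosome X, 101731535 to 101734269), the receptor for interferon-induced chemokines, was at 43.7, 77.1, 17.7 and 40.5 CPM in HetTP and 532, 535, 581 and 526 CPM in KOTP. Its log2 fold change of 3.60 (SE 0.55, edgeR adjusted p = 5.0e-04) was the largest rise by the rule for named genes. Gpr183, the oxysterol receptor EBI2 that draws B cells to the outer follicle, was at 103 to 169 CPM in HetTP and 450 to 463 CPM in KOTP, a log2 fold change of 1.88 (SE 0.20, edgeR adjusted p = 1.0e-05). Ackr2, a scavenging chemokine receptor, rose by 2.79. None of these 4 receptors overlapped between the groups.

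The 3 falls, S1pr2, Gna13 and Arhgef1, belong to a pathway that confines B cells to germinal centers. S1pr2, the sphingosine phosphate receptor of germinal center B cells, was at 71.8, 72.3, 81.6 and 32.2 CPM in HetTP and 8.47, 10.6, 11.6 and 1.92 CPM in KOTP (log2 fold change -2.99, SE 0.58, edgeR adjusted p = 0.0022). Its signal passes through the G protein encoded by Gna13 to the exchange factor Arhgef1, and these had log2 fold changes of -1.42 and -0.75. Tbx21, the transcription factor T-bet, which is known to act on Cxcr3, was at 19.8, 11.3, 0 and 17.1 CPM in HetTP and 92.7, 110, 104 and 94.4 CPM in KOTP. It passed with a log2 fold change of 3.06 (SE 0.77, edgeR adjusted p = 0.016), but not in the fit of the 8 libraries alone.

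Most adhesion molecules and cytokine receptors did not pass the test. Of 24 adhesion genes 3 were higher and 1 was lower, and of 33 cytokine receptor, JAK and STAT genes 4 were higher and 1 lower. All genes tested gave 5.06% higher and 5.22% lower. The adhesion gene that fell is also in the macrophage marker list, with means of 40.2 CPM in HetTP and 2.12 CPM in KOTP. The part of macrophage RNA in its fall was not tested. Cd2, an adhesion receptor, was at 285.2, 285.7, 345.4 and 292 CPM in HetTP and 659, 617, 612 and 635 CPM in KOTP (log2 fold change 1.06, SE 0.17, edgeR adjusted p = 3.5e-04). Il9r, the IL-9 receptor chain found on memory B cells, was at 14.2, 13.9, 23.5 and 26.0 CPM in HetTP and 84.6, 88.9, 88.8 and 64.7 CPM in KOTP (log2 fold change 2.07, SE 0.44, edgeR adjusted p = 0.0046). Il5ra, the IL-5 receptor chain found on B-1 cells, fell from 8.26 to 29.4 CPM to 1.82 to 2.31 CPM, a log2 fold change of -3.13. Stat4 and the common gamma chain Il2rg rose by 1.08 and 0.58. Jak1, the most abundant gene of the list, had a log2 fold change of 0.05 (SE 0.16).

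**Figure D3:**
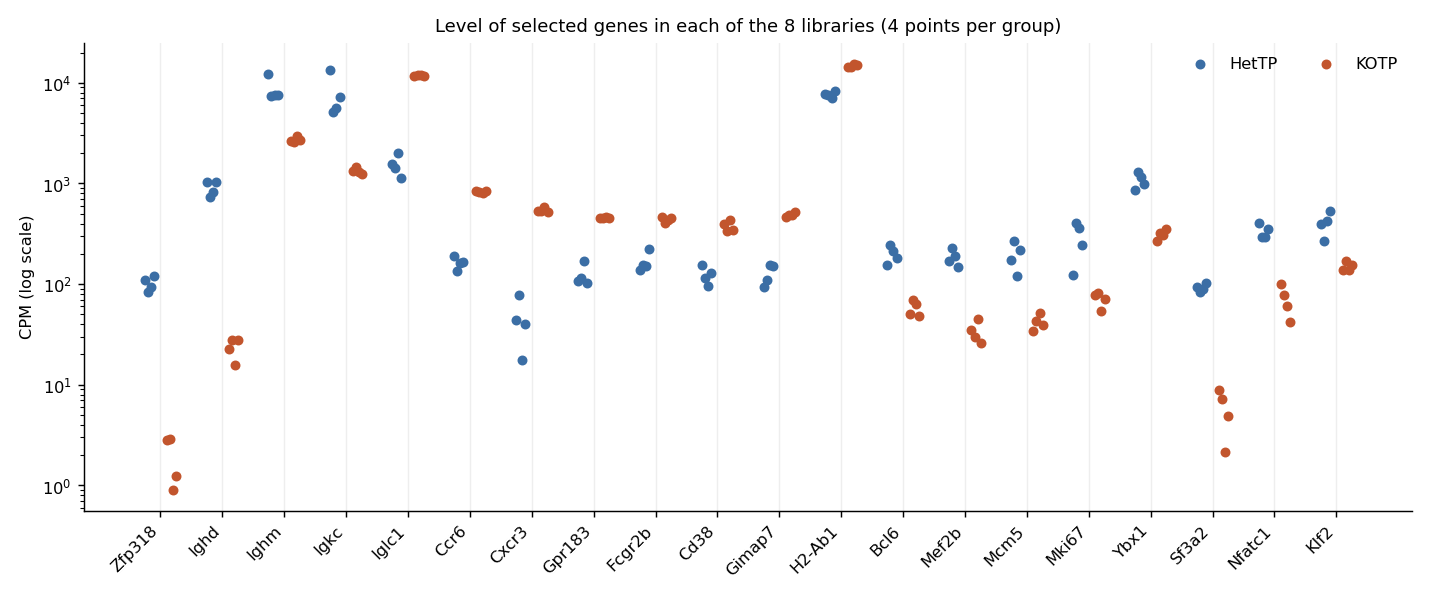
Level of 20 genes in each HetTP (blue) and KOTP (orange) library in CPM on a log axis, 1 point per library. For Ccr6, H2-Ab1 and Gimap7 all 4 orange points lie above the blue ones, for Zfp318, Sf3a2 and Mcm5 all lie below them, and the blue points are more spread for Igkc and Mki67.

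Antigen presentation genes were higher in KOTP. MHC class II molecules display peptides to helper T cells, H2-DM and H2-O edit which peptides are loaded, and the invariant chain Cd74 escorts them. Of 16 class II genes tested, 10 were higher and 2 lower, against 5.06% and 5.22% of all genes. Their median log2 fold change was 0.88, against -0.026 over all genes tested. H2-Ab1 (GRCm38 chromosome 17, 34257689 to 34269419) was at 7735, 7577, 7109 and 8211 CPM in HetTP and 14220, 14240, 15390 and 15170 CPM in KOTP (log2 fold change 0.95, SE 0.09, edgeR adjusted p = 3.0e-06). H2-Aa and H2-Eb1 rose by 0.89 and 0.92, the peptide editor H2-DMa by 0.93, and its inhibitors H2-Oa and H2-Ob by 1.00 and 1.12. Cd74 went the other way, from 18760, 20260, 19490 and 20580 CPM to 15790, 14160, 13420 and 12180 CPM (log2 fold change -0.51, SE 0.10, edgeR adjusted p = 0.0031), with no overlap. Ciita, the transactivator of class II genes, was the other lower member, at 132 to 237 CPM against 86.4 to 118 CPM (edgeR adjusted p = 0.048), a call lost in 8 of 17 alternatives.

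Class II promoters are known for a conserved Y box, an inverted CCAAT element bound by NF-Y, which works beside the X box that recruits the transactivator. The 8 bases CTGATTGG were searched on both strands in the 250 bases before the start site. They were found in 4 of 12 tested class II genes with a RefSeq promoter. Among tested genes of DNA replication and the G1/S transition, a list with falls and no rise, 6 of 32 held them. Of all promoters, 1258 of 32851 (3.83%) did. A listed gene counted if any of its promoters matched, while the last share counts single promoters, so the units are unlike. Sequences of 60 bases are shown for H2-Aa, H2-Eb1 and H2-Oa, chosen because they rose and hold a match. Whether a match goes with the rise was not tested. The match is in capitals, on the gene's strand, and starts 51, 62 and 46 bases before the RefSeq start site (GRCm38.p6). They lie at chr17:34287841-34287900 (minus strand), chr17:34305779-34305838 (plus strand) and chr17:34092307-34092366 (plus strand). A match describes the letters of the window and shows no binding.
H2-Aa: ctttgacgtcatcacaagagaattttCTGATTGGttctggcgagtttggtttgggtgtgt
H2-Eb1: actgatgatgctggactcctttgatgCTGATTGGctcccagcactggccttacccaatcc
H2-Oa: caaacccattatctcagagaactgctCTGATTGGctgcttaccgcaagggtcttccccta

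Class I presentation moved less. Of 24 genes, 7 were higher and none was lower, against 5.06% and 5.22% of all genes. The nonclassical class I gene H2-T23, which encodes Qa-1, was at 453, 378, 420 and 437 CPM in HetTP and 1138, 1189, 1199 and 1092 CPM in KOTP (log2 fold change 1.45, SE 0.11, edgeR adjusted p = 1.4e-07). H2-Q7 and the shared light chain B2m rose by 0.70 and 0.48. The classical gene H2-K1 was at 2816 to 3814 CPM and 3553 to 3878 CPM and did not pass (edgeR adjusted p = 0.56). Near-identical class I genes may share reads.

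Germinal center genes were lower in KOTP. Germinal centers are the sites where B cells divide and mutate their receptors, and the sort excluded cells with the surface markers GL7 and FAS. Of 22 germinal center genes, 8 were lower and none was higher, against 5.22% and 5.06% of all genes. Bcl6 (GRCm38 chromosome 16, 23965052 to 23988852), the repressor that directs the germinal center program, was at 153, 245, 216 and 181 CPM in HetTP and 50.6, 69.8, 64.1 and 48.3 CPM in KOTP (log2 fold change -1.77, SE 0.21, edgeR adjusted p = 2.9e-05). Mef2b, a transcription factor that acts on Bcl6, fell from 171, 230, 188 and 149 CPM to 35.3, 30.1, 45.3 and 25.9 CPM (log2 fold change -2.43, SE 0.26, edgeR adjusted p = 8.5e-06). Gcsam, a signalling adaptor of germinal center B cells, fell from 23.4 to 62.2 CPM to 0.26 to 2.73 CPM, a log2 fold change of -4.56. Nuggc, a nuclear GTPase of germinal centers, and Stmn1, a microtubule regulator, had log2 fold changes of -2.05 and -2.14. Mef2c, the most abundant gene of the list, was at 200 to 396 CPM and 400 to 439 CPM and missed the threshold (edgeR adjusted p = 0.099).

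Memory and plasma cell genes split. Of 26 memory markers 6 were higher and 1 was lower, and of 20 plasma cell genes 2 were higher and 6 lower. For all genes tested the shares were 5.06% and 5.22%. Cd38, whose protein was a criterion of the sort in both groups, was at 95.4 to 154 CPM in HetTP and 337 to 435 CPM in KOTP (log2 fold change 1.62, SE 0.21, edgeR adjusted p = 6.0e-05). The calcium-binding S100a10 rose by 1.06. Klf2, a factor of resting and recirculating lymphocytes, was the fall among the memory markers, from 397, 270, 420 and 527 CPM to 138, 171, 137 and 156 CPM (log2 fold change -1.42, SE 0.20, edgeR adjusted p = 1.3e-04). Jchain, which joins IgM and IgA into polymers, fell from 73.8, 193, 144 and 136 CPM to 5.01, 6.50, 7.51 and 6.07 CPM (log2 fold change -4.44, SE 0.52, edgeR adjusted p = 2.2e-05). Eaf2 and Edem1, which serve transcription elongation and the disposal of misfolded glycoproteins, had log2 fold changes of -2.67 and -1.13. Mzb1, an endoplasmic reticulum protein of antibody-making cells, rose instead, from 503 to 644 CPM to 973 to 1090 CPM (log2 fold change 0.82, SE 0.14, edgeR adjusted p = 6.4e-04).

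Cell cycle genes were lower in KOTP more often than the 5.22% of all genes tested. Of 40 genes of DNA replication and the G1/S transition, 28 were lower and none was higher, with a median log2 fold change of -1.29. Of 42 genes of G2/M and mitosis, 24 were lower and none was higher, with a median of -1.67. In the tdTomato-negative cells the median log2 fold changes of the same lists were -0.93 and -1.03. The difference between the effects did not pass the test for any of the genes named below.

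The minichromosome maintenance genes, which encode the replicative helicase, show the size of the fall. Mcm5 (GRCm38 chromosome 8, 75109569 to 75128439) was at 172, 268, 121 and 220.4 CPM in HetTP and 34.1, 43.5, 52.3 and 39.5 CPM in KOTP (log2 fold change -2.21, SE 0.24, edgeR adjusted p = 9.2e-06). The highest KOTP library was below the lowest HetTP library. Mcm3, Mcm4, Mcm6 and Mcm7 had log2 fold changes of -1.87, -1.79, -1.48 and -1.39. Cdc45, the helicase partner, had a log2 fold change of -2.40, and Lig1, the ligase that joins replication fragments, one of -2.12. Rrm1 and Rrm2, which make nucleotides for replication, had log2 fold changes of -1.67 and -2.32. Rfc2, a clamp loader subunit and the most abundant gene of the list, did not pass, at 207 to 303 CPM and 266 to 324 CPM (edgeR adjusted p = 0.81).

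Mitotic genes fell with a wider spread among HetTP libraries. Mki67, the proliferation marker Ki-67, was at 124, 409, 362 and 244 CPM in HetTP and 77.8, 80.9, 53.6 and 71.0 CPM in KOTP (log2 fold change -2.01, SE 0.28, edgeR adjusted p = 1.2e-04). HetTP library 1 was the lowest of its group. Cdc20, which starts anaphase, fell from 77.3, 425, 297 and 325 CPM to 54.8, 28.5, 27.0 and 42.5 CPM, a log2 fold change of -2.88. The kinase Plk1 and the topoisomerase Top2a had log2 fold changes of -2.56 and -1.76. Bub3, a spindle checkpoint protein used throughout the cell cycle, had a log2 fold change of -0.01 (SE 0.16).

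Replication genes are known targets of E2F factors, whose sites include TTTCCCGC and TTTGGCGC. Either of these 8-base motifs, on either strand of the 250 bases before the start, was found in 6 of 32 tested G1/S genes with a RefSeq promoter and in 427 of 32851 promoters (1.30%). Here too a listed gene counted if any of its promoters matched, while the second share counts single promoters. TTTCCCGC alone was in 0.895% and TTTGGCGC in 0.417% of all promoters. Shown are 60 bases of the 3 helicase genes with a match, with the match in capitals, which starts 149, 47 and 165 bases before the RefSeq start site. Mcm5 (chr8:75109334-75109393, plus strand) and Mcm7 (chr5:138172015-138172074, minus strand) hold it on the strand opposite to the gene, and Mcm6 (chr1:128359719-128359778, minus strand) on the gene's strand.
Mcm5: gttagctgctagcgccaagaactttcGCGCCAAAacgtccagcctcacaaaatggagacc
Mcm6: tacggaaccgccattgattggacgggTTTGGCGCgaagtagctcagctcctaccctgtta
Mcm7: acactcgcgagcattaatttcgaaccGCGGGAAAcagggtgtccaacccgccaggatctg

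Enzymes that act on the DNA lesions left by activation-induced deaminase were lower in 9 of 34 cases and higher in 1, and 24 did not pass. Shares over all genes tested were 5.22% and 5.06%. Neil1, a glycosylase and also a germinal center marker, was at 233, 211, 266 and 131 CPM in HetTP and 56.4, 46.1, 51.8 and 43.5 CPM in KOTP (log2 fold change -2.09, SE 0.22, edgeR adjusted p = 9.2e-06). Exo1, the mismatch repair exonuclease, fell from 23.2 to 57.3 CPM to 2.05 to 8.47 CPM, a log2 fold change of -3.11. The translesion polymerase Polh and the break sensor Parp1 had log2 fold changes of -1.96 and -0.86. Hmces, which shields abasic sites in single-stranded DNA, was outside the list and had one of the smallest p-values of all falls, at 210, 386, 253 and 195 CPM in HetTP and 45.3, 46.3, 39.7 and 46.5 CPM in KOTP (log2 fold change -2.55, SE 0.20, edgeR adjusted p = 2.5e-07). Prkdc, the kinase of end joining, was the single rise of the list (log2 fold change 0.92, edgeR adjusted p = 0.031), a call lost in 7 of 17 alternatives.

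Among 39 transcription factors of the B lineage, 10 were lower and 1 was higher, against 5.22% and 5.06% of all genes. Tcf3, which encodes the E protein E2A, was at 502, 252, 242 and 217 CPM in HetTP and 83.5, 89.5, 85.5 and 80.6 CPM in KOTP (log2 fold change -1.84, SE 0.34, edgeR adjusted p = 0.0015). Pax5, the factor that keeps B cell identity, fell from 65.6 to 196 CPM to 33.3 to 59.5 CPM (log2 fold change -1.54, edgeR adjusted p = 0.015), while most surface markers of B cells rose. The Ets factor Spib and the proliferation factor Mybl2 had log2 fold changes of -1.24 and -2.68, and Foxp1, a factor of resting B cells, one of -0.49. Batf, a factor needed for class switching, was the rise, from 14.9, 24.8, 36.6 and 35.0 CPM to 57.9, 79.4, 68.5 and 70.7 CPM (log2 fold change 1.31, SE 0.31, edgeR adjusted p = 0.0097). Irf8, the most abundant of these factors, was at 502 to 910 CPM and 766 to 840 CPM and did not pass. The call of Pax5 was lost in 3 of 17 alternatives.

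Of 18 immediate early genes 2 were higher, 4 were lower and 12 did not pass, where 5.06% of all genes were higher and 5.22% lower. A gene with no count in HetTP, at a mean of 1.54 CPM in KOTP, was 1 of the 2 rises. Btg2, an antiproliferative gene, was at 108, 56.5, 95.7 and 66.4 CPM in HetTP and 231, 234, 260 and 218 CPM in KOTP (log2 fold change 1.53, SE 0.19, edgeR adjusted p = 3.6e-05). Zfp36, which marks cytokine mRNAs for decay, fell from 303 to 406 CPM to 89.8 to 134 CPM, a log2 fold change of -1.59. Egr1, an immediate early gene, fell from 41.9, 181, 63.0 and 24.4 CPM to 8.47, 12.7, 5.12 and 3.69 CPM (log2 fold change -3.38, SE 0.88, edgeR adjusted p = 0.017), and its call was lost without HetTP library 2, KOTP library 3 or KOTP library 4. Of 21 NF-kB genes 3 were lower, among them the subunit Rela and the coactivator Bcl3 with log2 fold changes of -0.87 and -1.03, and the call of Bcl3 was lost without KOTP library 1.

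**Figure D4:**
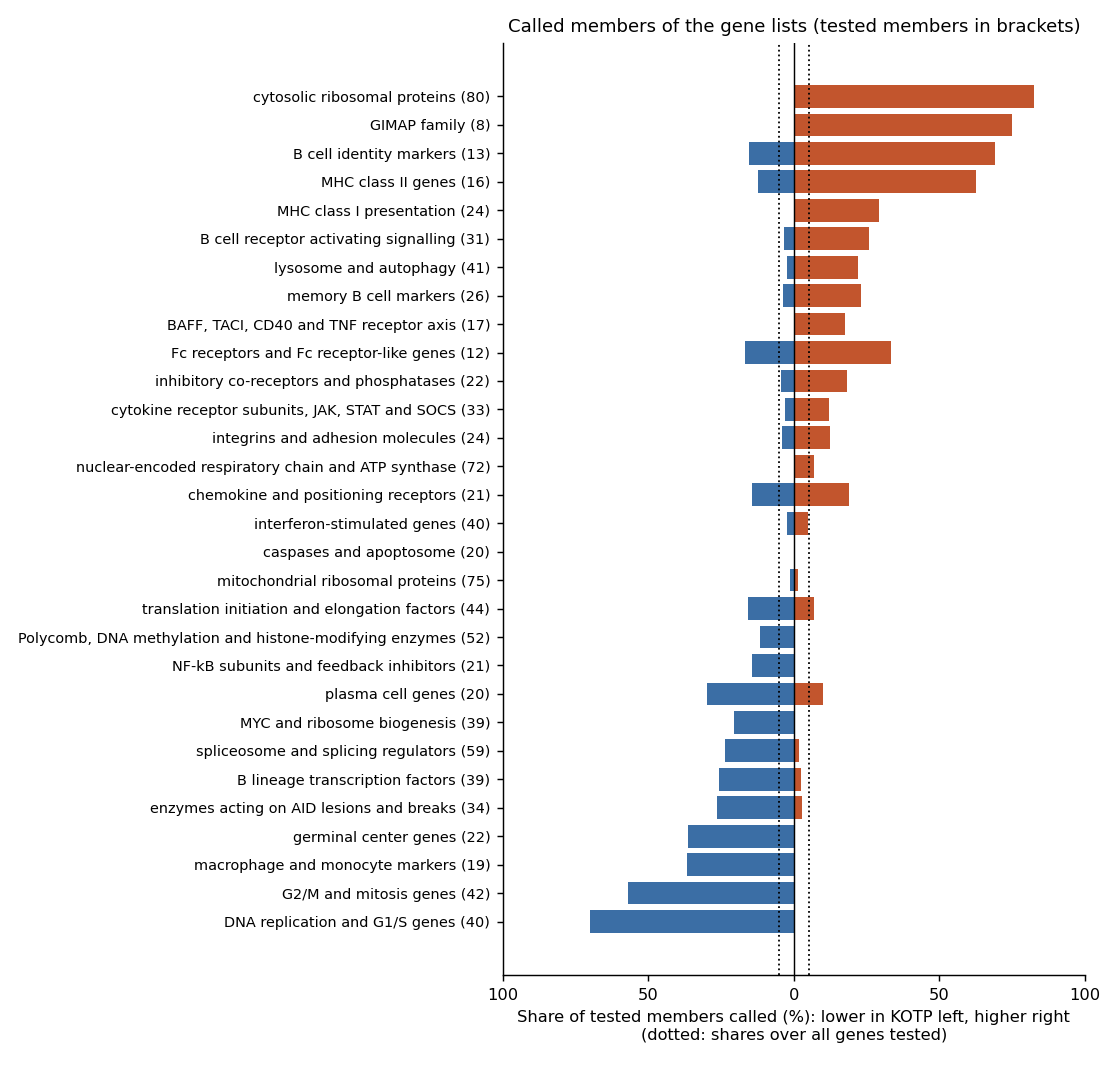
Share of the tested members of 30 gene lists that passed an adjusted p of 0.05 in edgeR, in percent, with members lower in KOTP to the left and members higher to the right of 0. Dotted lines mark the shares over all tested genes, 5.22% lower and 5.06% higher, and the lists at the top (ribosomal proteins, GIMAP) and the bottom (G1/S, G2/M) lie far beyond them.

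Ribosomal protein genes rose together. Of 80 tested, 66 were higher and none was lower, with a median log2 fold change of 0.79. Together they took 15.5%, 17.0%, 18.9% and 18% of all counts in HetTP and 23.5%, 24.8%, 23.8% and 26.5% in KOTP (exact permutation p = 0.0286, adjusted 0.0321). Rpl19, of the large subunit, was at 1832, 1855, 2314 and 2089 CPM in HetTP and 3822, 4076, 4035 and 4378 CPM in KOTP (log2 fold change 1.01, SE 0.14, edgeR adjusted p = 9.5e-05). Rps13 and Rps27 rose by 0.99 and 0.92. Translation factors moved in both directions: of 44, 3 were higher and 7 lower, against 5.06% and 5.22% of all genes. Eef1a1, the elongation factor that carries aminoacyl-tRNA to the ribosome, had a log2 fold change of 0.15 (edgeR adjusted p = 0.36). The initiation factors Eif3b, Eif4g2 and Eif4a1 had log2 fold changes of -1.39, -0.90 and -0.79, and Eif4a2, a paralog of Eif4a1, rose by 0.78.

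Coding length moved with the direction of change. When genes were ranked by coding length and divided into 3 classes of about equal size, in the class with the shortest coding sequences (996 bases or less) 8.96% were higher and 5.26% lower, while in the class with the longest (1821 bases or more) 2.68% were higher and 5.83% lower. Ribosomal proteins are short, and the part of length in their rise was not tested. Ribosome biogenesis ran the other way, with 8 of 39 genes lower and none higher, against 5.22% and 5.06% of all genes. Fbl, the methyltransferase of ribosomal RNA, and Pa2g4 had log2 fold changes of -1.13 and -1.08, while Npm1, the most abundant of these genes, had a log2 fold change of -0.05 (SE 0.14).

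Among 59 splicing factors 14 were lower in KOTP, 1 was higher and 44 did not pass, with a median log2 fold change of -0.176. Over all genes tested, 5.22% were lower and 5.06% higher. Sf3a2 (GRCm38 chromosome 10, 80798198 to 80804924), a subunit of the U2 particle that recognises the branch point, was at 93.3, 84.2, 90.2 and 102 CPM in HetTP and 8.86, 7.16, 2.16 and 4.91 CPM in KOTP. With a log2 fold change of -4.01 (SE 0.40, edgeR adjusted p = 3.8e-06) it was among the 12 largest falls of all genes by the rule for named genes. Srsf2 fell from 322, 435, 270 and 226 CPM to 27.1, 58.8, 81.2 and 74.4 CPM (log2 fold change -2.37, SE 0.33, edgeR adjusted p = 1.1e-04). U2af2, which binds the polypyrimidine tract, and Hnrnpl had log2 fold changes of -2.63 and -1.70. The helicase Ddx5, the most abundant member, did not pass (log2 fold change 0.19, SE 0.14). Ybx1, a binder of mRNA outside the list, had one of the smallest p-values among the falls, at 860, 1312, 1154 and 986 CPM in HetTP and 266, 320, 308 and 354 CPM in KOTP (log2 fold change -1.79, SE 0.14, edgeR adjusted p = 1.4e-07).

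GIMAP genes, GTPases of immunity-associated proteins that support lymphocyte survival, rose in 6 of 8 members and fell in none. Gimap7 (GRCm38 chromosome 6, 48718621 to 48724636) was at 93.3, 110, 154 and 151 CPM in HetTP and 470, 483, 490 and 520 CPM in KOTP (log2 fold change 1.95, SE 0.20, edgeR adjusted p = 6.8e-06). Gimap4 and Gimap6 rose by 1.53 and 1.00. The BCL2 family, by contrast, gave 2 rises and 1 fall among 14, where all genes tested gave 5.06% rises and 5.22% falls. A gene with no count in HetTP, at a mean of 1.93 CPM in KOTP, was 1 of these rises. Mcl1, a short-lived survival factor, fell from 108 to 209 CPM to 59.0 to 79.3 CPM (log2 fold change -1.23, SE 0.21, edgeR adjusted p = 7.9e-04), and Bcl2a1d, another survival factor with near-identical copies, rose by 1.31. Bax, the most abundant member, had a log2 fold change of 0.10 (SE 0.19). Of 20 caspase and apoptosome genes none passed edgeR's test, with 1 higher and 1 lower at an unadjusted p under 0.05.

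Lysosomal genes leaned upward. Of 41 genes of lysosomes and autophagy 9 were higher and 1 was lower, against 5.06% and 5.22% of all genes. Ctss, the cathepsin that cleaves the invariant chain, was at 809 to 935 CPM in HetTP and 1419 to 1555 CPM in KOTP (log2 fold change 0.77, SE 0.09, edgeR adjusted p = 2.9e-05), and Ctsc rose by 0.92. Outside the lists, the cell surface protein Serinc3 was at 368 to 456 CPM in HetTP and 1103 to 1285 CPM in KOTP, and Pglyrp1, which binds bacterial peptidoglycan, at 75.8 to 95.3 CPM and 283 to 324 CPM. Their log2 fold changes were 1.54 and 1.80 (SE 0.13 and 0.14, edgeR adjusted p = 3.2e-07 and 1.9e-07).

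Most metabolic genes did not pass the test, as for all genes tested, of which 5.06% were higher and 5.22% lower. Of 72 nuclear-encoded respiratory chain genes 5 were higher and none was lower, near the 5.06% of all genes, with Cox8a and Uqcrh at log2 fold changes of 0.71 and 0.79. Of 75 mitochondrial ribosomal proteins 1 was higher and 1 lower, and of 19 tricarboxylic acid cycle genes Idh3b alone passed (log2 fold change 0.55). Mitochondrially encoded transcripts took 1.27% to 2.60% of counts in HetTP and 1.48% to 1.63% in KOTP, which did not differ beyond their spread (exact permutation p = 0.229). Of 28 genes of cholesterol synthesis and uptake 3 were lower, among them Sqle and Cyp51, enzymes of the sterol pathway, with log2 fold changes of -1.89 and -1.64. Nucleotide synthesis had more falls, 5 of 30 against 1 rise, and Rrm1 and Rrm2 were among them. Of 24 glycolysis genes 2 were lower, of 28 fatty acid genes 1, of 23 aminoacyl-tRNA synthetases 3 and of 23 genes of the integrated stress response 1, and none of these lists had a rise. Of 29 mTORC1 and amino acid transport genes 1 was higher, and of 27 antioxidant and iron genes 1 was higher and 3 lower. Those 3 falls include Hmox1 and another gene of the macrophage marker list, and the part of macrophage RNA in them was not tested.

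The counts that follow stand beside 5.06% higher and 5.22% lower over all genes tested. Of 52 chromatin enzymes 6 were lower and none was higher. Of 40 interferon-stimulated genes 2 were higher and 1 was lower, of 37 endoplasmic reticulum genes 2 and 1, of 31 proteasome subunits 1 and 2, and of 24 heat shock chaperones 1 and 3. The rise among the heat shock chaperones was of a gene with no count in HetTP and a mean of 1.45 CPM in KOTP. Of 18 genes of CD11c-positive and T-bet-positive B cells 4 were higher and 1 was lower, of 20 naive follicular genes 3 and 4, of 21 marginal zone and B-1 genes 1 and 1, and of 22 quiescence factors 2 and 3.

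Transcripts of other cell types were among the largest falls. Trac, the constant gene of the T cell receptor alpha chain, was at 349, 161, 433 and 111 CPM in HetTP and had 2 counts over the 4 KOTP libraries, both in KOTP library 3. No ratio is given, since 2 counts may come from 1 fragment. Cd3e and Cd3g, T cell receptor subunits, had no count in KOTP and were at least 38.4-fold and 90.7-fold lower against a floor of 3 counts over the group. Lck, a kinase of T cells that B cells can also express, stayed measurable at 36.9 to 47.9 CPM in KOTP against 75.8 to 128 CPM. Of 19 macrophage and monocyte markers 7 were lower and none was higher, against 5.22% and 5.06% of all genes. C1qc, a complement component made by macrophages, was at 86.1, 16.6, 73.0 and 25.9 CPM in HetTP and 2.05 to 5.99 CPM in KOTP (log2 fold change -3.63, SE 0.62, edgeR adjusted p = 7.6e-04). Hmox1, the heme oxygenase of red pulp macrophages, fell from 34.8 to 181 CPM to 0.77 to 6.10 CPM, a log2 fold change of -5.02, and C1qb had one of -3.86. HetTP library 2 had the lowest level of C1qc, C1qb and Hmox1 within its group. In bulk libraries fewer cells of a type and less RNA per cell cannot be told apart.

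The genotypes were also compared in tdTomato-negative cells (HetTN and KOTN). Of the 1099 genes, 536 were called there in the same direction and 2 in the opposite direction. The share of all tested genes called there is not given here, so these counts have no background beside them. The sign of the change was the same for 1033 of the 1099 (94.0%), passed or not, and for 7134 of all 10687 genes tested (66.8%). The difference between the genotype effects in tdTomato-positive and tdTomato-negative cells passed edgeR's test for 13 of 10687 genes (0.122%). Itgax, the integrin CD11c, was at 13.7, 9.22, 11.2 and 8.94 CPM in HetTP and 10.53, 12.47, 11.39 and 20.12 CPM in KOTP, while HetTN had 2 counts over 4 libraries and KOTN 281, 270, 277 and 202 counts. Its tdTomato-positive groups overlapped, and its difference of effects (edgeR adjusted p = 7.4e-05) rested on HetTN. Fcgrt rose in tdTomato-positive cells by 2.13 and had a log2 fold change of 0.09 in tdTomato-negative cells (difference 2.04, SE 0.39, edgeR adjusted p = 0.045). Iglc1 rose by 2.95 and 1.92 (difference 1.02), and Fcmr had log2 fold changes of -0.42 and -1.27 (difference 0.86). H2-DMb1, a peptide editor chain, rose by 0.60 and had -0.29 in tdTomato-negative cells (edgeR adjusted p of the difference 0.040). The mitochondrially encoded mt-Nd1 and mt-Nd2 had log2 fold changes of 0.04 and 0.00, against -1.34 and -1.81. Without any 1 of the 4 KOTP libraries, Itgax was the only one of the 13 that passed, and in limma voom, run with 2 kinds of weights, Itgax did not pass (adjusted p 0.262 and 0.321) while Fcmr, Iglc1, mt-Nd1 and mt-Nd2 passed with both (the highest being 0.016, for Iglc1).

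**Figure D5:**
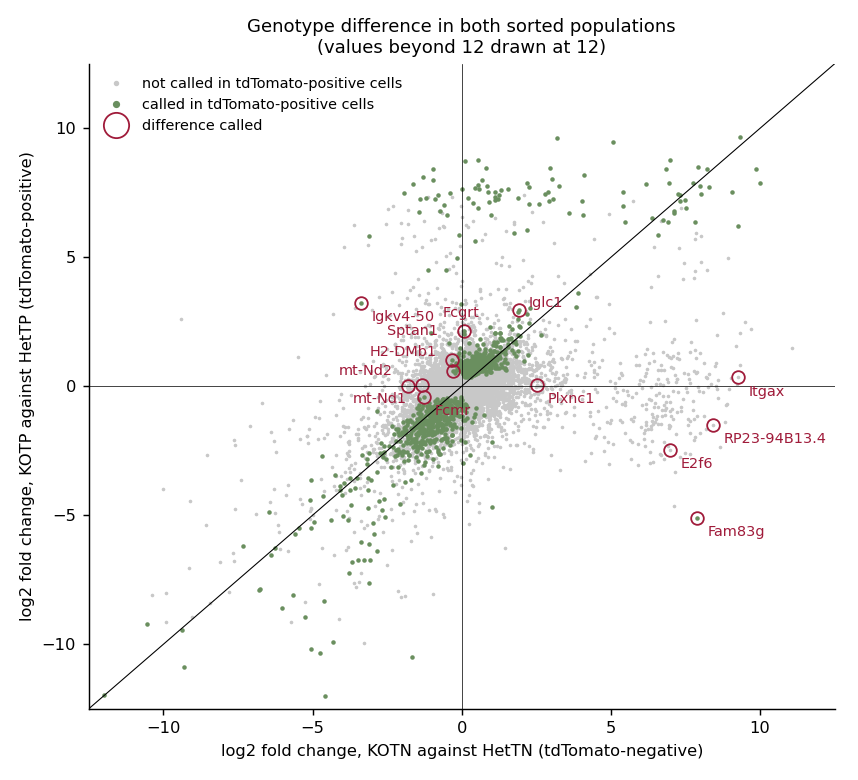
Log2 fold change of homozygous against heterozygous cells among tdTomato-positive (vertical) and tdTomato-negative (horizontal) cells, 1 point per tested gene, green where called among tdTomato-positive cells, with the 13 genes whose difference of effects passed edgeR's test circled and the line of equal change drawn. Itgax lies far to the right at a log2 fold change of 0.34 on the vertical axis.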

How the data were processed

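RNA of sorted mouse spleen B cells was sequenced in 16 libraries, 4 per genotype and tdTomato state. Trim Galore, STAR 2.2.0, featureCounts and the build mm10 are named in the submitters' processing notes; strand, pair and multimapping settings are not given in the sources used here. The authors deposited raw read counts over the coding sequence of each gene in 1 table per genotype, per the file headers, and these were joined on gene symbol (22675 genes). The authors also deposited columns named as normalized to mapped reads (RPM), per the file headers; their totals show another denominator. The authors' deposited values in the heterozygous table were therefore called a score, and neither set was tested. Counts were scaled by TMM, filtered with filterByExpr and tested with edgeR 4.0.16 (R 4.3.3) by the robust quasi-likelihood test on all 16 libraries, with Benjamini-Hochberg adjustment and a threshold of 0.05. CPM are TMM-scaled counts per 1000000. Log2 fold changes are KOTP minus HetTP. Each SE was worked back as the absolute log2 fold change divided by the square root of edgeR's F statistic. Composition measures were tested by exact permutation over libraries. The scripts were tested on simulated data. Alternatives used limma 3.58.1, DESeq2 1.42.0, other scalings, filters and left-out libraries. Positions are from GENCODE M21 (GRCm38), which matched 88.7% of symbols, and promoters from RefSeq (GRCm38.p6).

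The comparison and its gene lists were chosen with earlier results of these data known. Genes were named by rule: Zfp318; among genes whose mean level reached a log2 CPM of 3 and whose groups did not overlap, the 12 largest rises and falls and the 12 of each with the smallest p; from each list up to 6 called members with the smallest p and the most abundant member; and 6 genes of the difference between tdTomato states. Variable segments and predicted genes were left out of the largest changes. Ighv1-72, Ighv11-2, Igkv14-126, Mcm6, Prkdc, Ciita, Fas, Sdc1, Cd3e, Cd3g, Gna13, H2-DMb1, Plxnc1, Sptan1 and mt-Nd1 may fall outside it and were chosen after their values were seen. Some results are not reported here.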

Additional observations from a re-analysis of the deposited data

Results flagged for a closer look

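Within groups of 4 libraries, 326 sets of values of named genes and library measures were checked for a library far from the other 3, and 19 had one. Chance gives such a gap in about 1 of 20 groups.

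HetTP library 1 was high in Ighm (12190 CPM), Tcf3 (501.7 CPM), Irf8 (910.4 CPM) and the share of the 10 most abundant genes (10.81% of counts). HetTP library 2 was low in H2-Oa (509.1 CPM) and in switched isotypes (3.989% of heavy chain constant reads per kb). HetTP library 3 was high in Cd2 (345.4 CPM) and low in H2-Aa (5644 CPM) and Bcl3 (53.31 CPM). HetTP library 4 held 568.9 CPM of erythroid and platelet markers, against at most 90.73 CPM in the other 3.

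Among KOTP libraries, library 1 was high in Fcer1g (6.035 CPM), Plk1 (24.52 CPM) and Sdc1 (0.7704 CPM), and low in Bcl3 (45.32 CPM). Library 2 was low in Fcrl1 (526.5 CPM). Library 3 was high in Cd79b (3995 CPM) and Trac (0.2277 CPM, the only library with a count) and low in Prkdc (72.64 CPM) and mt-Nd2 (314.8 CPM).

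The genotype effect differed between tdTomato-positive and tdTomato-negative cells for 10 named genes by edgeR's test of the difference, given here as positive minus negative on the log2 scale. It was higher among tdTomato-positive cells for Fcgrt (2.04), mt-Nd2 (1.81), mt-Nd1 (1.38), Sptan1 (1.33, a spectrin chain), Iglc1 (1.02), H2-DMb1 (0.89) and Fcmr (0.86). It was lower for Plxnc1 (-2.49, a semaphorin receptor), Itgax (-8.91) and E2f6 (-9.44). The last 2 had 2 and 1 counts over the 4 HetTN libraries, so their fitted sizes depend on the prior count.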

How the results depend on the processing

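The count of 1099 genes ranged from 956 to 1476 over the alternatives that kept all libraries, and from 722 (without KOTP library 4) to 1120 (without HetTP library 1) when 1 library was left out. In the fit of the 8 libraries alone 1182 genes passed, and leaving out 1 library, an alternative chosen after seeing the data, gave 630 to 1475. With limma voom the median log2 fold change over all genes was 0.189 or 0.196, against -0.026, so its fold changes are relative to that shift. The 13 genes of the difference between tdTomato states became 194 with DESeq2, 7 with limma voom under either weighting, 1 without any KOTP library and 10 to 16 without a HetTP library, so the range on leaving out a library was 1 to 16; the cause was not tested.

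Replicate numbers are shared between groups, but HetTP and KOTP libraries with the same number did not deviate together (correlations -0.029 to 0.03). Whether tdTomato-positive and tdTomato-negative libraries of one genotype with the same number deviate together was not checked. With the replicate block 956 genes passed, and 1 gene of the difference.

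Of 126 named genes past the threshold, 118 kept their call in each of 17 alternatives, 8 lost it in at least 1, and none changed direction. Most named genes were picked for a small p or a large change in these data. Among all 1099 called genes, 606 lost their call in no alternative that tested them. Of the higher calls, 83 had no HetTP count, so their fitted fold changes depend on the prior count; the cause of the zeros was not tested.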
